A study of Rattus norvegicus with 12 samples.

Results

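The genes described here encode Wnt ligands, their receptors and co-receptors, the secreted proteins that block them, the R-spondins and their Lgr receptors, and the intracellular proteins that handle beta-catenin. Members were taken by symbol from the annotation of a rat array: symbols starting Wnt, Fzd, Sfrp or Dkk with a digit after it, symbols starting Axin, Lgr or Rspo, and Wif1, Frzb, Lrp5, Lrp6, Ctnnb1 and Apc. Wnt4 and Wnt11 were left out of the set. This gave 37 of the 14217 genes that had a probe set with a single symbol, and each gene was read from the probe set with the highest mean signal. By role the set held 11 ligands, 7 Frizzled receptors, 2 co-receptors, 6 Frizzled-related antagonists, 2 Dickkopf antagonists, 5 R-spondins and Lgr receptors, and 4 cytoplasmic components.

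RNA came from rat kidney of 3 ages and from a cultured tissue called recombined here (n = 2). The ages were embryonic day 13 (E13, 3 arrays), embryonic day 18 (E18, 4 arrays) and postnatal week 4 (Wk4, 3 arrays). For recombined tissue, unbranched UBs made in vitro were put together with MM and kept in culture for 6 days. In the kidney field UB is the ureteric bud, the epithelium that grows into the collecting duct tree, and MM is the metanephric mesenchyme, from which nephrons form. The study asked how closely such tissue follows the kidney in vivo and used a 3-fold difference between conditions as its measure of change. The labels name no strain, sex, transgene or drug for any group. Nor do they tell if replicates are distinct animals or cultures. The p-values therefore reflect only how far these samples scatter, and that scatter may be technical.

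Wnt proteins are secreted, lipid-carrying signals that bind a Frizzled receptor together with the co-receptor Lrp5 or Lrp6. In cells without the signal, a complex built on Apc and Axin sends beta-catenin (Ctnnb1) for destruction, and in cells with it beta-catenin collects and enters the nucleus with factors of the TCF and LEF family. In the developing kidney, Wnt signals from the bud start nephron formation in the mesenchyme beside it.

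The sequences below are the 250 bases before the annotated start of 3 members on which the results turn, from RefSeq, build GRCr8. Axin2, a feedback inhibitor that is itself a textbook target of beta-catenin, is shown for the TCF/LEF letters in its window, which are in capitals. Sfrp2 is shown as the marker of the set and the member with a large loss over kidney stages, and Wnt5a as the ligand that was higher in culture. The windows are chr10:94398535-94398784, chr2:171387286-171387535 and chr16:3703415-3703664, each on the plus strand.
Axin2: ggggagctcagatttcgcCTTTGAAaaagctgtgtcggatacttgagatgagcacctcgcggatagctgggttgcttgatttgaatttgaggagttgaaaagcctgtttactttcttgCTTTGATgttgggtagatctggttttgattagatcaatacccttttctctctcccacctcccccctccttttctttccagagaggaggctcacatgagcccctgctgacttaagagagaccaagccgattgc
Sfrp2: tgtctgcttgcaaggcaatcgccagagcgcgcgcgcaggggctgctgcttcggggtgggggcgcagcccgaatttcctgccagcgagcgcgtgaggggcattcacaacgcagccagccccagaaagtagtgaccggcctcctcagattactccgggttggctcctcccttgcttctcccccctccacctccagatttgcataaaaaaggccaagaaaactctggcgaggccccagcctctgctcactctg
Wnt5a: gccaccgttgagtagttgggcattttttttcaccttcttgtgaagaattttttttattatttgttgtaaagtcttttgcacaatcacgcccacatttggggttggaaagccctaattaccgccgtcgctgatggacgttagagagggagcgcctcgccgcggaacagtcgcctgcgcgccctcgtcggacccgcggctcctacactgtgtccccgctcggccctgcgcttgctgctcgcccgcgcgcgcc
The letters searched were CTTTGNN, where each N is A or T, on both strands, and overlapping matches would each count. A promoter was in the table for 25 of the 37 members, and 2 of these 25 held a match. Axin2 had 2, CTTTGAA starting at -232 and CTTTGAT starting at -132 from the annotated start. Sfrp5 had 1, TACAAAG at -112, which is a match on the opposite strand. Of all 33469 promoters in the table, 14.9% held at least 1 match and 1.73% at least 2. A match is a run of letters and not a measured binding site.

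Levels below are deposited signals, linear in scale. Differences are given in units of log2(signal + 271) ± SE, a scale that understates the change of dim probe sets. Adjusted p-values come from limma, fitted over all 12 arrays. A call needed both an adjusted p under 0.05 and a 3-fold or larger change, and the wider count takes an adjusted p under 0.05 at any fold. Levels of different genes are not compared, since probe sets bind with different strength.

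Array medians lay between 799 and 1020 in signal. Residuals put the embryonic arrays in sets across stages: those of E13 replicate 1 correlated at 0.25 to 0.31 with those of E18 replicates 1 to 3 and at -0.60 with those of E18 replicate 4. Residuals cancel out within a group, so that negative value follows from the positive ones and is not separate evidence of a set. Of the 37 members, 32 rose above the 40th percentile of their array, a signal of 503 to 671, on at least 2 arrays and were tested. The 5 that did not were Wnt10a, Wnt16, Wnt7a, Fzd5 and Rspo1, so no change was measurable for them. Wnt8b passed only through its E13 arrays, and Sfrp4 only through both recombined arrays and 1 Wk4 array, so their place in the counts was set by the group where they were high. As a check of the tissue, all 6 kidney epithelium markers (Pax2, Pax8, Lhx1, Cdh1, Cdh6 and Epcam) were measured, and their summed signal was 14577 to 17868 at E13, 49690 to 68109 at E18, 86321 to 103529 at Wk4 and 9257 to 20979 in recombined tissue. The sum is weighted to bright probe sets. From E18 to Wk4 it rose, while 4 of the 6 markers passed as lower and 1 as higher, with a median difference of -0.80. In such bulk samples, fewer cells of a type and less RNA per cell cannot be told apart.

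Over the 6 comparisons, 12 of the 32 tested members were called at least once and 20 were not called. From E13 to E18, 1 member was called, Dkk2, where 2.34% of all probe sets were. From E18 to Wk4, 3 were called, all lower (11.2% of all probe sets). From E13 to Wk4, 5 were called, all lower and Wnt8b among them (17.9%). Recombined tissue had 6 called members against E13, 5 higher and 1 lower (4.86% of all probe sets), or 9 without recombined replicate 2, when Fzd4 (-1.59), Sfrp2 (-1.75) and Wnt8b (-1.82) joined Frzb as lower. Against E18 it had 2, both higher (4.40%), or 5 without recombined replicate 2, when Wnt5a (1.64), Fzd4 (-1.70) and Fzd6 (-1.66) joined Sfrp4 and Lgr6. Against Wk4 it had 4, all higher (15.2%). With 4 times the pseudocount, which shrinks differences of dim probe sets, the numbers of calls were 0, 1, 3, 1, 0 and 2 in the same order. The reported numbers were 3.13%, 9.38%, 15.6%, 18.8%, 6.25% and 12.5% of the 32 members, near the share of all probe sets in each comparison except recombined tissue against E13, which is a description and not a test.

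At any fold, 11 members passed from E13 to E18, 5 higher and 6 lower (19.8% of all probe sets). That number was 6 without E18 replicate 1 and 7 without each of E13 replicate 2, E13 replicate 3 and E18 replicate 3. From E18 to Wk4, 13 passed, 1 higher and 12 lower (54.7%), and from E13 to Wk4 14, 2 higher and 12 lower (60.6%). In recombined tissue 16 passed against E13, 8 in each direction (31.0%), or 10 without recombined replicate 1. Against E18 12 passed, 6 in each direction (28.2%), and against Wk4 18, 15 higher and 3 lower (53.0%). The median difference of the members was -0.25 from E18 to Wk4 and -0.26 from E13 to Wk4, where the medians over all probe sets were -0.12 and -0.11. Against Wk4 the recombined median was 0.57 for members and 0.19 for all probe sets. In the other comparisons the members' medians were -0.17 from E13 to E18, -0.18 for recombined tissue against E13 and 0.03 against E18, while all probe sets lay within 0.02 of 0.

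**Figure D1:**
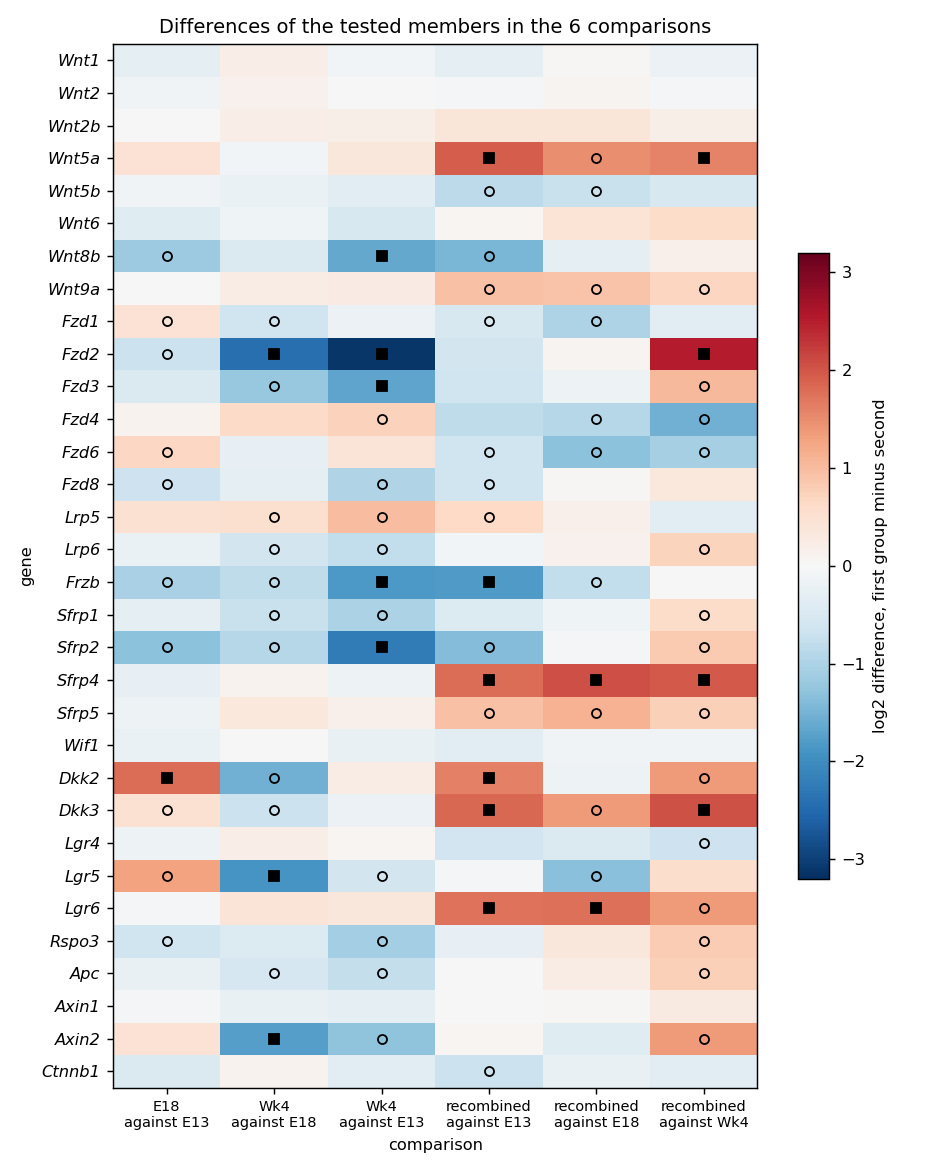
Colour gives the log2 difference of each of the 32 tested members (rows) in the 6 comparisons (columns), first group minus second; filled squares mark calls (adjusted p under 0.05 and at least 3-fold) and open circles an adjusted p under 0.05 below 3-fold. The deepest blue is Fzd2 at Wk4, and the red squares in recombined tissue are Wnt5a, Fzd2, Sfrp4, Dkk2, Dkk3 and Lgr6.

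The ligand called higher in culture was Wnt5a, which mostly acts through branches other than beta-catenin and steers cell movement and tissue growth. Its signal was 646, 475 and 683 at E13, 629, 1223, 794 and 1109.6 at E18, 792, 952 and 783 at Wk4 and 3418 and 2753 in recombined tissue. Both recombined arrays lay above all 10 kidney arrays. The difference was 1.94 ± 0.23 against E13 (limma adjusted p = 2.51e-05), 1.49 ± 0.22 against E18 (adjusted p = 0.000165) and 1.59 ± 0.23 against Wk4 (adjusted p = 4.61e-05). The last stood at the 3-fold limit, and the call ended without Wk4 replicate 1 (1.56), Wk4 replicate 3 (1.55) or recombined replicate 1 (1.44), with quantile normalization (1.51) and with median centring (1.43), the adjusted p still under 0.05 in each. Its close relative Wnt5b lay the other way, at 1447 ± 148 (SD, n = 3) at E13 and 683 ± 39.96 (SD, n = 2) in recombined tissue (difference -0.85 ± 0.24, limma adjusted p = 0.0147), a pass that ended without recombined replicate 1 (-0.80).

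Wnt8b, a ligand known mainly from the embryonic brain, had signals of 1078, 686 and 893 at E13, 326, 185, 218 and 248 at E18, 206, 25.98 and 88.5 at Wk4 and 54.2 and 252 in recombined tissue. Only the E13 arrays were above their 40th percentile, and they stood apart from the other 9. Wnt8b entered the tests only through these arrays, so its p-values are not independent support for its fall. It fell by 1.16 ± 0.25 from E13 to E18 (limma adjusted p = 0.0039, or 0.0976 without a pseudocount) and by 1.63 ± 0.26 from E13 to Wk4 (adjusted p = 8.59e-05), the latter below 3-fold without E13 replicate 1 (-1.51) or Wk4 replicate 2 (-1.47). Wnt9a gave 1073 and 1065 in recombined tissue against 429 ± 37.6 (SD, n = 3) at E13, with a difference of 0.94 ± 0.26 (limma adjusted p = 0.0133) that no longer passed when either recombined array was left out (0.93 and 0.94). Wnt2b read 1523, 1256 and 929 at E13, 1310.2, 1334, 1099 and 1079 at E18, 1500, 1467 and 1324 at Wk4 and 1117 and 2425 in recombined tissue, and its groups overlapped in each comparison. With Wnt1, Wnt2 and Wnt6 it was among the 6 tested members that passed in no comparison, which also held Wif1 and Axin1.

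Among the receptors, Fzd2 changed most with age. Its signal was 14174, 7679 and 8678 at E13, 6014, 7899, 6007 and 4526 at E18, 1071, 913 and 753 at Wk4 and 6543 and 6333 in recombined tissue. The Wk4 arrays were far below all others, while recombined arrays lay within the range of E18. Fzd2 fell by 2.41 ± 0.20 from E18 to Wk4 (limma adjusted p = 1.54e-07) and by 3.10 ± 0.22 from E13 to Wk4 (adjusted p = 1.5e-08), and it was higher in recombined tissue than at Wk4 by 2.51 ± 0.24 (adjusted p = 7.93e-07). Against E18 the recombined difference was 0.10 ± 0.23 (adjusted p = 0.802).

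Fzd3, a receptor known for planar polarity and axon guidance, had signals of 1095, 1419 and 1567 at E13, 753, 955, 750.4 and 1173 at E18, 75.4, 311 and 367 at Wk4 and 706 and 833 in recombined tissue. The Wk4 arrays were the lowest 3 of the 12, and none was above the 40th percentile of its array. Fzd3 fell by 1.68 ± 0.24 from E13 to Wk4 (limma adjusted p = 2.75e-05), or by 1.41, below 3-fold, without Wk4 replicate 1. With 4 times the pseudocount that difference was -0.87, also below 3-fold. Fzd8 fell between E13 and E18, from 3326 ± 92.4 (SD, n = 3) to 2016 ± 214 (SD, n = 4) (difference -0.66 ± 0.15, limma adjusted p = 0.00517), and stood at 1579 ± 325 (SD, n = 3) at Wk4.

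Fzd1 read 19226, 15746 and 14092 at E13, 23902, 22948, 23583 and 19476 at E18, 15578, 13587 and 13627 at Wk4 and 9085 and 13925 in recombined tissue. E18 arrays stood above all the others, and E18 was higher than Wk4 (Wk4 minus E18 -0.64 ± 0.14, limma adjusted p = 0.00154) and than recombined tissue (recombined minus E18 -0.98 ± 0.16, adjusted p = 0.000456). Fzd6 was the 1 member of 32 that lay lower in recombined tissue than in each stage, where 2.98% of all probe sets did. Its recombined arrays read 629.5 and 1181, against 1528 ± 200.4 (SD, n = 3) at E13, 2605 ± 474 (SD, n = 4) at E18 and 2135 ± 454 (SD, n = 3) at Wk4. The difference of -0.65 ± 0.24 against E13 (limma adjusted p = 0.0498) did not pass without recombined replicate 1 (-0.30), nor without any single one of the 3 E13 arrays (-0.59 to -0.74), E18 replicates 1, 2 and 3 or Wk4 replicate 1 (each -0.65). It also missed with no filter on dim probe sets, without the intensity trend and with only the compared arrays in the fit (each -0.65). Without recombined replicate 2, 3 members lay lower than each stage (Fzd1, Fzd4 and Fzd6), and without Wk4 replicate 1 it was Wnt5b alone. Against E18 (-1.32 ± 0.22) and Wk4 (-1.06 ± 0.24) Fzd6 passed without each array.

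Fzd4, the receptor that takes the ligand norrin in vessels, had means of 7022 ± 782 (SD, n = 4) at E18 and 10875 ± 652 (SD, n = 3) at Wk4, and read 1966 and 6387 in recombined tissue. Its difference from E18 to Wk4 was 0.62 ± 0.26 (limma adjusted p = 0.061) and did not pass. The 2 recombined arrays differed more than 3-fold here, and 1 of them lay among the embryonic arrays. Recombined tissue was lower than Wk4 by 1.53 ± 0.32 (limma adjusted p = 0.000879), by 0.74 without recombined replicate 1 and by 2.32 without recombined replicate 2. Beside this, the 6 measured endothelial markers had a summed signal of 56834 to 64784 at Wk4 and 4090 to 11648 in recombined tissue, and all 6 were called lower there. The part of that loss in the Fzd4 result was not tested.

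Of the co-receptors, Lrp5 passed as higher at Wk4 than at E13, 1675 ± 239.6 (SD, n = 3) against 717 ± 123 (SD, n = 3) (difference 0.98 ± 0.21, limma adjusted p = 0.000806). The other Lrp5 probe set, above the 40th percentile on 9 arrays, gave 0.62 ± 0.30 and did not pass. With its probe sets averaged the Lrp5 difference was 0.80 and passed. Lrp6 went the other way over the same span. Its signal was 4997, 9222 and 6067 at E13, 5751, 4511, 5537 and 6966 at E18, 4038, 3260.2 and 3704 at Wk4 and 5093 and 7479.6 in recombined tissue, and the Wk4 arrays were the lowest 3. It fell by 0.80 ± 0.21 from E13 to Wk4 (adjusted p = 0.00458), and by 0.56 without E13 replicate 2, the highest array.

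The Frizzled-related antagonists resemble the ligand-binding part of a Frizzled receptor without its membrane anchor, and they bind Wnt proteins outside the cell. Sfrp2 showed the widest fall with age among them. Its signal was 19978, 14649 and 14292 at E13, 6042, 7282, 6969 and 5125 at E18, 3879, 3378 and 2547 at Wk4 and 4604 and 7853 in recombined tissue. The 3 stages did not overlap, and the recombined arrays fell on either side of the E18 arrays. Sfrp2 fell by 1.32 ± 0.19 from E13 to E18 (limma adjusted p = 0.000207), by a further 0.91 ± 0.19 from E18 to Wk4 (adjusted p = 0.00106) and by 2.23 ± 0.21 over the whole span (adjusted p = 2.91e-07). Recombined tissue was lower than E13 (-1.38 ± 0.23, adjusted p = 0.00042), and its difference from E18 was -0.06 ± 0.22 (adjusted p = 0.868). The second probe set of Sfrp2 fell by 2.15 from E13 to Wk4.

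Frzb took a course like that of Sfrp2 through the stages but was lower in culture. It read 12476, 11304 and 11713 at E13, 5779, 6978, 4839 and 5269 at E18, 2595, 3419.8 and 3380.3 at Wk4 and 3094 and 3203 in recombined tissue. E13 stood above E18 and E18 above Wk4 with no overlap, and the recombined arrays lay inside the Wk4 range. Frzb fell by 1.03 ± 0.14 from E13 to E18 (limma adjusted p = 8.1e-05) and by 1.84 ± 0.15 from E13 to Wk4 (adjusted p = 5e-08), and it was lower in recombined tissue than at E13 by 1.82 ± 0.16 (adjusted p = 1.7e-06). The other Frzb probe set gave -1.53 and -1.64 for the last 2 comparisons. Sfrp1 read 23146, 13143 and 15920.4 at E13, 14103, 16182, 14475 and 11204 at E18, 9759, 7588 and 7740.4 at Wk4 and 10781 and 14523 in recombined tissue. Wk4 was the lowest group, 1.003 ± 0.19 below E13 (adjusted p = 0.000406), and the embryonic arrays overlapped.

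**Figure D2:**
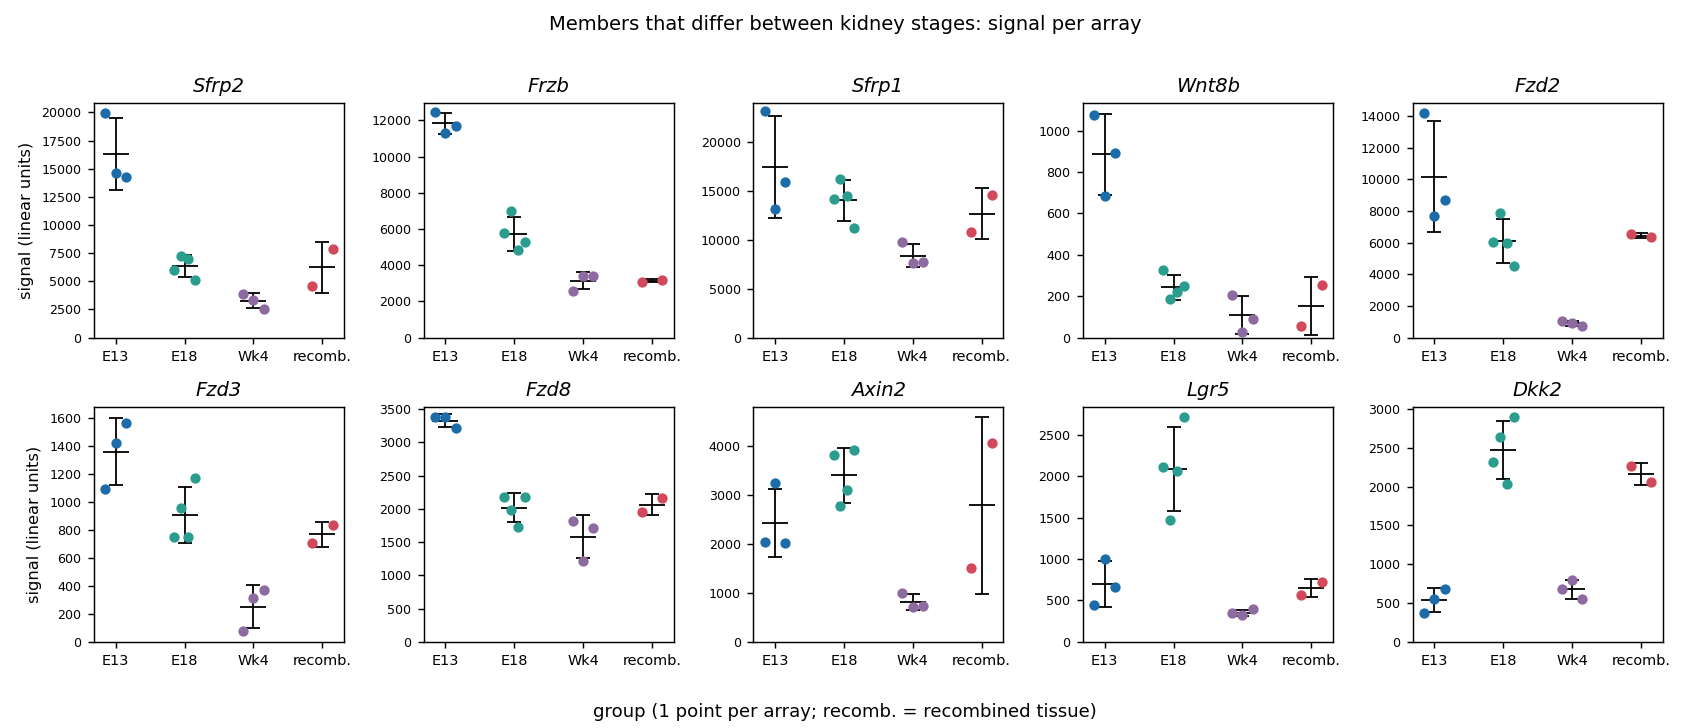
Deposited signal on a linear scale for 10 members that differ between kidney stages, 1 point per array, with the group mean (wide bar) and SD (whiskers) for 3 E13, 4 E18, 3 Wk4 and 2 recombined arrays. Sfrp2, Frzb, Wnt8b and Fzd8 are highest at E13, Lgr5 and Dkk2 peak at E18 among the stages, and Fzd2 is lowest at Wk4.

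Sfrp4 behaved differently from these relatives. It read 428, 333 and 281 at E13, 282, 92.8, 336 and 305 at E18 and 227, 86.8 and 673 at Wk4, and 1672 and 2073 in recombined tissue. Both recombined arrays were above every kidney array. The differences were 1.79 ± 0.35 against E13 (limma adjusted p = 0.00148), 2.05 ± 0.34 against E18 (adjusted p = 0.000386) and 1.95 ± 0.35 against Wk4 (adjusted p = 0.000314). The other Sfrp4 probe set was never above the 40th percentile of its array and gave differences of 0.27, 0.39 and 0.17. Sfrp5 was also highest in recombined tissue, at 1299 and 852 against 424 ± 83.2 (SD, n = 3) at E13, with 0.94 ± 0.26 against E13 (adjusted p = 0.0119). Without recombined replicate 1 that difference was 0.70 and did not pass. Wif1, which binds Wnt proteins through a domain of another kind, stayed between 404 ± 100.5 (SD, n = 2) and 608 ± 269 (SD, n = 3) as group means.

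Dickkopf proteins are secreted antagonists. Dkk2 binds Lrp5 and Lrp6, while Dkk3 is a divergent relative that is not known to block them in the same way. Dkk2 read 374, 554 and 679 at E13, 2323, 2645, 2039.8 and 2899.8 at E18, 680.3, 799 and 552 at Wk4 and 2263 and 2059 in recombined tissue. It was high at E18 and in culture and low at E13 and Wk4, with no overlap between the high and the low groups. Dkk2 rose by 1.78 ± 0.18 from E13 to E18 (limma adjusted p = 5.14e-06) and fell by 1.53 ± 0.18 from E18 to Wk4 (adjusted p = 3.58e-06). In recombined tissue it was higher than at E13 by 1.61 ± 0.21 (adjusted p = 5.42e-05), just past 3-fold, and below it without E13 replicate 1 (1.46) or recombined replicate 1 (1.55), with quantile normalization (1.48) or with median centring (1.41).

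Dkk3 read 2066, 1708 and 2047 at E13, 2679.5, 3332, 2702 and 2606 at E18, 2227, 1349 and 1515 at Wk4 and 7612 and 7638 in recombined tissue. The recombined arrays agreed closely and were more than 2-fold above every kidney array. Its differences were 1.84 ± 0.19 against E13 (limma adjusted p = 5.77e-06), 1.35 ± 0.18 against E18 (adjusted p = 6.18e-05) and 2.03 ± 0.19 against Wk4 (adjusted p = 4.58e-07). These rest on 1 of 4 probe sets. Of the others, 2 were never above the 40th percentile, and the remaining set, above it on 7 arrays, gave 0.32 ± 0.36 against E13, 0.30 ± 0.34 against E18 and 0.89 ± 0.36 against Wk4. With the mean of the 4 sets the differences were 0.56, 0.47 and 0.78, below the 3-fold limit, and that against E18 did not pass at any fold (adjusted p = 0.0852).

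R-spondins are secreted proteins that raise Wnt signalling, and Lgr4, Lgr5 and Lgr6 are the receptors that bind them. Lgr5, which marks stem and progenitor cells in several epithelia, read 443, 999.8 and 664 at E13, 2112, 1477, 2068 and 2719 at E18, 349, 321 and 392 at Wk4 and 572 and 727 in recombined tissue. The 4 E18 arrays were the highest of the 12, and the recombined arrays lay inside the E13 range. No Wk4 array was above its 40th percentile. Lgr5 rose by 1.30 ± 0.22 from E13 to E18 (limma adjusted p = 0.000658) and fell by 1.90 ± 0.22 from E18 to Wk4 (adjusted p = 3.82e-06). With 4 times the pseudocount the latter difference was -1.13, below 3-fold. Lgr5 was lower in recombined tissue than at E18 by 1.34 ± 0.25 (adjusted p = 0.00101).

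Lgr6 read 624, 627 and 554 at E13, 660.3, 598, 539 and 512 at E18, 1119, 891 and 597 at Wk4 and 2527 and 2720.2 in recombined tissue. The recombined arrays were more than 2-fold above every kidney array. The differences were 1.73 ± 0.21 against E13 (limma adjusted p = 3.05e-05), 1.77 ± 0.20 against E18 (adjusted p = 1.64e-05) and 1.37 ± 0.21 against Wk4 (adjusted p = 7.55e-05). With median centring the first was 1.54, below 3-fold. Lgr4 read 2599, 4043 and 4507 at E13, 2654, 2818, 3018 and 4576 at E18, 3974, 3831 and 3523 at Wk4 and 2408 and 2129.6 in recombined tissue. Its recombined arrays were the lowest, but the difference of -0.67 ± 0.23 from Wk4 (adjusted p = 0.0246) did not pass without recombined replicate 1 (-0.75), recombined replicate 2 (-0.59), Wk4 replicate 1 (-0.64) or Wk4 replicate 2 (-0.66). Rspo3 fell by 1.09 ± 0.21 from E13 to Wk4, from 1585 ± 169 (SD, n = 3) to 632 ± 269 (SD, n = 3) (adjusted p = 0.00048).

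**Figure D3:**
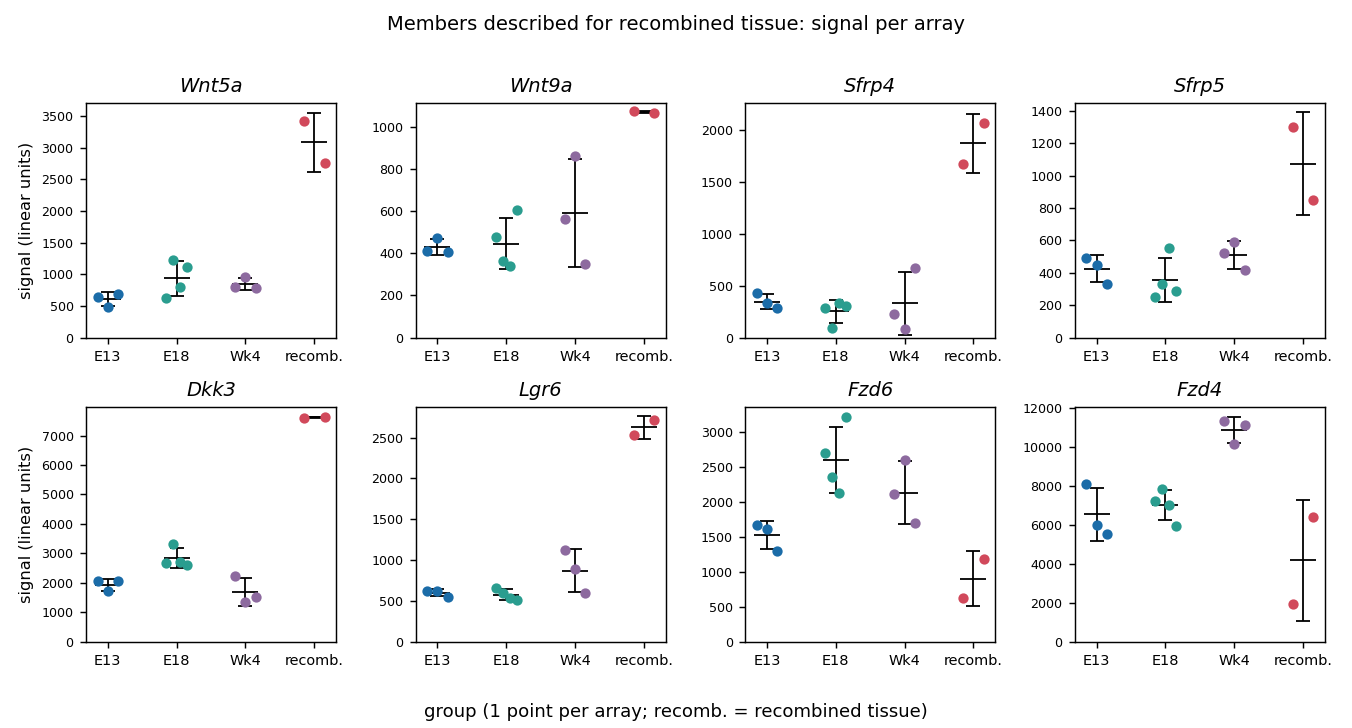
Deposited signal on a linear scale for 8 members described for their level in recombined tissue, 1 point per array, with the group mean (wide bar) and SD (whiskers) for 3 E13, 4 E18, 3 Wk4 and 2 recombined arrays. Wnt5a, Wnt9a, Sfrp4, Sfrp5, Dkk3 and Lgr6 are above every kidney array in both recombined arrays, Fzd6 is below every kidney array, and the 2 recombined arrays of Fzd4 lie far apart.

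Inside the cell, Axin2 was the component that was called. Axin2 read 2028, 3238 and 2012 at E13, 3812, 2771, 3095 and 3909.6 at E18, 997, 707 and 739.9 at Wk4 and 1512 and 4066 in recombined tissue. The Wk4 arrays were below all others. The 2 recombined arrays lay far apart, replicate 1 below every embryonic array and replicate 2 above every embryonic array. Axin2 fell by 1.75 ± 0.26 from E18 to Wk4 (limma adjusted p = 4.29e-05) and by 1.29 ± 0.28 from E13 to Wk4 (adjusted p = 0.000916), and it was higher in recombined tissue than at Wk4 by 1.37 ± 0.31 (adjusted p = 0.00178), or by 0.73 without recombined replicate 2. E18 minus E13 was 0.46 ± 0.26 (adjusted p = 0.245). This is the gene whose upstream window, printed above, holds 2 of the TCF/LEF letter runs.

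Ctnnb1, beta-catenin itself, read 111916, 167225 and 159665 at E13, 104898, 87923, 96281 and 138731 at E18, 119933, 112222 and 109409 at Wk4 and 68844 and 114764 in recombined tissue. On this probe set the groups overlapped in all 6 comparisons. Its lower mean in recombined tissue than at E13 (-0.69 ± 0.22, limma adjusted p = 0.0257) did not pass without recombined replicate 1 (-0.33), E13 replicate 2 (-0.59) or E13 replicate 3 (-0.62), nor with quantile normalization (-0.47), without the intensity trend or with only the compared arrays in the fit. A pair of other Ctnnb1 probe sets gave -1.08 and -0.89 for that comparison, and both passed. At Wk4 the first of the pair read 8725, 8954 and 6942, and the second 29644, 38090 and 35907. In both sets the Wk4 arrays lay below every E13 and E18 array, the lowest of which read 11633 and 44151. Apc fell by 0.76 ± 0.15 from E13 to Wk4 (adjusted p = 0.000565), from 7129 ± 1444 (SD, n = 3) to 4036 ± 86.2 (SD, n = 3). Axin1, a close relative of Axin2, had group means between 3467 ± 89.1 (SD, n = 3) and 4346 ± 406 (SD, n = 3) and passed in no comparison.

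In all, 6 of the 32 members (Wnt5a, Wnt9a, Sfrp4, Sfrp5, Dkk3 and Lgr6) lay higher in recombined tissue than in each of the 3 stages at an adjusted p under 0.05, where 6.23% of all probe sets did. These 3 comparisons share the recombined arrays. Wnt5a, Sfrp4, Dkk3 and Lgr6 did so without each array in turn. Wnt9a no longer did without E18 replicate 1, Wk4 replicate 1, Wk4 replicate 3 or either recombined array (0.47 to 0.68 against Wk4), and Sfrp5 no longer did without Wk4 replicate 3 (0.68 against Wk4) or recombined replicate 1 (0.53), when Wnt2b joined the group. With quantile normalization or median centring, neither Wnt9a (0.54 and 0.52) nor Sfrp5 (0.63 and 0.61) passed against Wk4. Sfrp4 entered the tests only through both recombined arrays and 1 Wk4 array, and gave no value with its probe sets averaged. With the 4 probe sets of Dkk3 averaged, Dkk3 did not pass against E18 (0.47). The recombined arrays also held more signal from other cell types. All 7 fibroblast and matrix markers passed as higher than in each stage, with a summed signal of 562139 to 669395 against 111325 to 147583 at E13, 206106 to 251805 at E18 and 75158 to 119400 at Wk4. All 4 smooth muscle markers did too, at 105905 to 169372 against 10533 to 39166 over the kidney arrays. Macrophage markers, 7 of 7 higher, summed to 97533 to 167598 against 6666 to 39668 in kidney. No value in the data was listed at 0. The part of these markers in the 6 results was not tested.

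Other marker lists moved with the decreases at Wk4. The 5 measured renal stroma markers summed to 130454 to 139132 at E13, 95491 to 105652 at E18 and 20604 to 26611 at Wk4, and 4 of the 5 passed as lower at Wk4 than at E13. A pair of nephron progenitor markers, Eya1 and Meox1, summed to 17133 to 24575 at E13 and 1157 to 1291 at Wk4. Proximal tubule markers, 4 of 4 higher, summed to 1151 to 1505 at E13 and 280394 to 322301 at Wk4. Their part in the decreases of Fzd2, Fzd3, Sfrp2, Frzb, Lgr5 and Axin2 was not tested.

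Sfrp2 was compared with the other 11912 measured genes by Pearson correlation of log2 values over the 12 arrays. The genes most alike were Coil (0.99), Efnb3 (0.98), Spata46, Prtg and Iqcb1 (each 0.97). Among the members, Wnt8b (0.92), Fzd8 (0.89), Sfrp1 (0.88), Frzb (0.88) and Fzd2 (0.85) were closest. They ranked 64, 213, 258, 279 and 535 among the 11912 genes, so many genes outside the set were closer to Sfrp2. These values describe 12 arrays in 4 groups, so differences between the groups enter each correlation.

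The rest of the pathway was read from a list of 86 symbols outside the member families. Of these, 73 had a single-symbol probe set and 68 were tested. Wisp1 and Wisp2 on the list are older names of Ccn4 and Ccn5, which it holds too. Of the 68, 9 were listed as target genes and not as pathway components, among them Pax8, Lhx1, Cd44 and Ccn4. Pax8 and Lhx1, both called from E13 to E18, are also kidney epithelium markers here. The part of cell types in the results below was not tested. From E13 to E18, 6 were called, 5 higher and 1 lower (8.82%, against 2.34% of all probe sets). Pax8, a nephron transcription factor, rose by 2.56 ± 0.28 (limma adjusted p = 1.22e-05). The Dishevelled-binding relatives Dact2 and Dact1 went opposite ways, by 2.32 ± 0.19 and -1.71 ± 0.17. At any fold 25 of the 68 passed, 19 higher and 6 lower (36.8%, against 19.8%).

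From E18 to Wk4, 14 pathway genes were called, all lower (20.6%, against 11.2% of all probe sets). At any fold 51 passed, 5 higher and 46 lower (75.0%, against 54.7%), and the median was -0.74, against -0.12 over all probe sets. Gpc3, a glypican on the cell surface, fell by 3.15 ± 0.21, from 51327 ± 8201 (SD, n = 4) to 5613 ± 1426 (SD, n = 3), and the planar polarity gene Vangl2 by 3.12 ± 0.19, from 4783 ± 176 (SD, n = 4) to 329.5 ± 206 (SD, n = 3). The nuclear group held 16 tested genes, of which 4 were called lower: Tcf7 (-2.56 ± 0.22) and Lef1 (-2.53 ± 0.26), the partners of beta-catenin on DNA, Bcl9 (-1.87 ± 0.26), which bridges to it, and Tle1 (-1.80 ± 0.15), a co-repressor. The last 4 genes were chosen for naming after their values were seen. Over the whole span from E13 to Wk4, 19 were called, 6 higher and 13 lower (27.9%, against 17.9%), led downward by Vangl2 (-3.57 ± 0.21) and Dact1 (-3.50 ± 0.18) and upward by Sostdc1 (3.04 ± 0.14), a secreted antagonist, and Pax8 (2.85 ± 0.30). At any fold 52 passed, 12 higher and 40 lower (76.5%, against 60.6%).

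In recombined tissue, 5 pathway genes were called against E13, 4 higher and 1 lower, a share of 7.35% that is near the 4.86% of all probe sets. Cd44, a hyaluronan receptor, was higher by 2.49 ± 0.39 and Ccn4, a matricellular protein encoded by a known target gene, by 2.37 ± 0.21, from 493 ± 20.1 (SD, n = 3) at E13 to 3664 ± 185 (SD, n = 2). Gpc3 was lower by 1.79 ± 0.25, or under 3-fold, by 1.36 without recombined replicate 1 and by 1.13 with its probe sets averaged. Against E18, 7 were called, 2 higher and 5 lower (10.3%, against 4.40%), or 4 without recombined replicate 1. Sostdc1 was lower by 3.51 ± 0.15, from 13974 ± 2808 (SD, n = 4) to 962 ± 22.7 (SD, n = 2), and Pax8 by 2.17 ± 0.31, or by 1.41 without recombined replicate 1, while Cd44 (2.27 ± 0.37) and Ccn4 (1.99 ± 0.20) were higher. Against Wk4, 19 were called, 15 higher and 4 lower (27.9%, against 15.2%), with Ccn4 (3.24 ± 0.21) and the receptor-like gene Ptk7 (2.92 ± 0.21) at the top and Sostdc1 (-4.27 ± 0.16) and Pax8 (-2.47 ± 0.33) at the bottom. At any fold the numbers were 22 against E13, 13 of them higher (32.4%, against 31.0% of all probe sets), 22 against E18, 9 higher (32.4%, against 28.2%), and 45 against Wk4, 36 higher (66.2%, against 53.0%). The share against E13 lay near that of all probe sets.

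**Figure D4:**
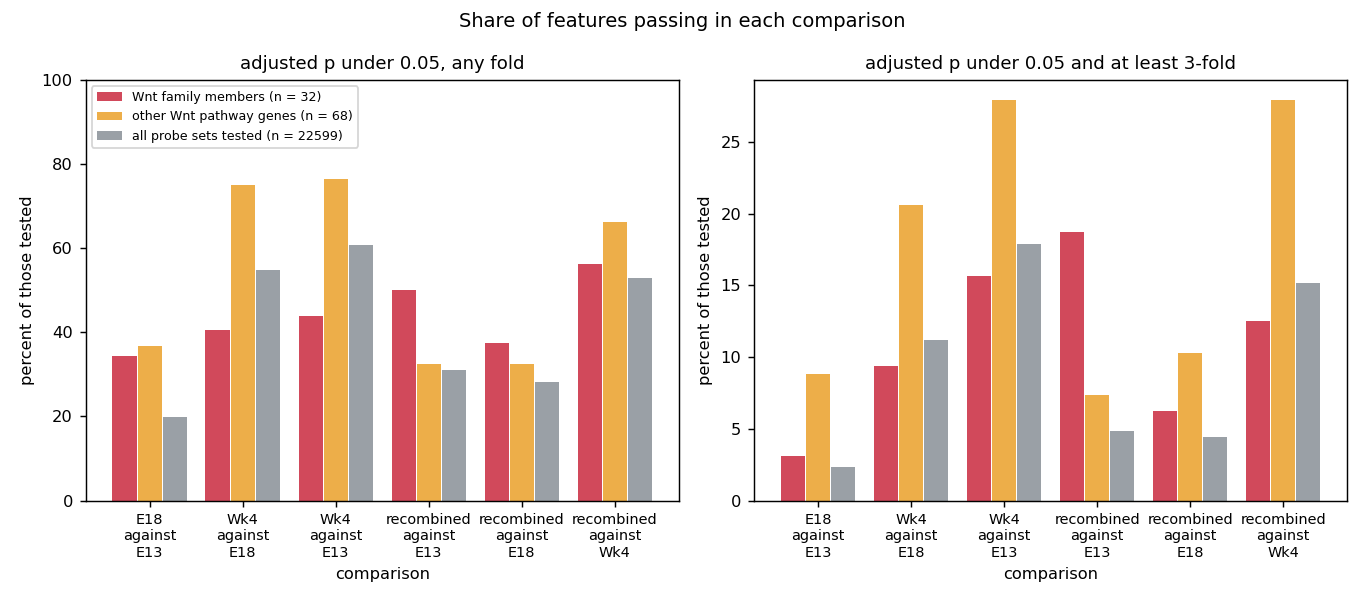
Bars starting at 0 give the percent of the 32 tested members, the 68 other pathway genes and all 22599 probe sets that passed in each comparison, at any fold (left) and at 3-fold or more (right; the vertical scales differ). At any fold the members' bar is under that of all probe sets at Wk4 against E18 (40.6% and 54.7%) and against E13 (43.8% and 60.6%), and above it for recombined tissue against E13, where 16 members passed and 31.0% of all probe sets did.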

How the data were processed

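Total RNA from 12 rat samples was hybridised as biotinylated cRNA to Affymetrix arrays, per the labels' protocols. The deposited values hold 1 linear intensity for each probe set. The submitters' processing notes name GCOS as the software; for its algorithm and target value, the entry is not given in the sources used here. With 2% trimmed from each end, all arrays had a mean of 2500.0, so arrays had been scaled globally, which hides changes in total RNA per cell. The 57 control probe sets were left out. Values were used as log2(signal + 271), 271 being their 25th percentile. Of 31042 probe sets, 22599 were kept, being above the 40th percentile of the array on 2 or more of the arrays. Gene symbols came from the platform annotation (20826 probe sets with 1 symbol, 436 with several, 9780 with none, the latter groups unnamed); all 37 members matched the current RefSeq gene table. All arrays entered 1 linear model in limma 3.58.1 (R 4.3.3; lmFit, eBayes with trend; 8 residual degrees of freedom), two-sided, and p-values were adjusted by Benjamini-Hochberg over all kept probe sets. The steps were tested on simulated arrays. Members, lists and rules were chosen with earlier results of these data known. Every member is accounted for; values per array are given for called members and the highest-mean member of each role, and pathway genes are named as the 2 called with the largest change each way. Alternatives covered pseudocount, normalization, filter, variance model, arrays entering, replicate block, fold minimum, probe set choice and array set.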

Additional observations from a re-analysis of the deposited data

Results flagged for a closer look

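The 4 E18 arrays of the 32 tested members were screened for an array set apart from the others, taking the gap to its nearest neighbour as a share of the range on the log2 scale and Dixon's 95% critical value for 4 samples as the limit. Chance alone passes that limit in about 1 of 20 groups. Dkk3 passed it with a share of 0.854, from E18 replicate 2 (2679.5, 3332, 2702 and 2606 over the 4 arrays in order). Apc passed it with a share of 0.951, from E18 replicate 4 (5589.5, 5588, 5659.9 and 7226).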

How the results depend on the processing

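No member result changed direction under any setting tried. Of the 21 called results, 6 kept their call in every setting. Of the 63 that passed below 3-fold, 32 still passed in every setting. Of the 21 called results, 17 kept their call without each array in turn, and of the 63 that passed below 3-fold, 35 did. Numbers of called members are given in the order E18 against E13, Wk4 against E18, Wk4 against E13, then recombined tissue against E13, E18 and Wk4, with 1, 3, 5, 6, 2 and 4 as reported. Without a pseudocount they were 2, 5, 5, 7, 5 and 9, with 4 times the pseudocount 0, 1, 3, 1, 0 and 2, at a 2-fold minimum 5, 5, 8, 8, 7 and 10, and with no fold minimum 11, 13, 14, 16, 12 and 18. With each gene's probe sets averaged they were 1, 3, 5, 4, 1 and 2; Sfrp4 then missed the filter and gave no value. Leaving out each array gave 1 throughout for E18 against E13, and 3 to 4, 4 to 5, 5 to 9, 2 to 5 and 3 to 5 in the other comparisons. With 1 recombined array left, its spread is assumed to be that of the other groups. The replicate block gave 1, 3, 5, 6, 2 and 3, ending the call of Wnt5a against Wk4 (1.58). Only 1 of 15 same-numbered array pairs had residuals correlated above 0.1 (range -0.17 to 0.31), so replicate numbers were not taken to pair samples. Quantile normalization, median centring, the filters, the variance model, only the compared arrays and the embryonic array set moved no number by more than 1, but the genes called were not all the same: median centring ended the calls of Dkk2 and Lgr6 against E13 and of Wnt5a against Wk4. The low number of recombined arrays limits all results on culture, and probe sets near background have no reliable fold.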

Other observations

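The 2 Wnt genes outside the set moved widely. Wnt4, which drives the mesenchyme to become epithelium, read 3373, 3078 and 2265 at E13, 7691, 5493, 7631 and 5989.9 at E18, 67.7, 691 and 297 at Wk4 and 9779 and 14381 in recombined tissue, where both arrays lay above every kidney array. It fell by 3.60 ± 0.28 from E18 to Wk4 (limma adjusted p = 5.58e-08) and was higher in recombined tissue than at E13 by 1.95 ± 0.33 (adjusted p = 0.000459). Wnt11, a ligand of ureteric bud tips, read 306, 1040.3, 1082 and 99.2 at E18, where the arrays differed widely, against 112 and 50.2 in recombined tissue (-1.16 ± 0.44, adjusted p = 0.0624).

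Between the 2 recombined arrays, 2 of the 32 members differed at least 2-fold (6.25%), as did 6.04% of all kept probe sets, and 22 of the 32 members were higher in replicate 2 (68.8%), as were 12542 of the 22599 kept probe sets (55.5%).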
